A study of Rattus norvegicus with 2 samples.

Results

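Kruppel-like factors are DNA-binding proteins with zinc fingers near the carboxyl end, which read GC-rich and CACCC-type sequences in promoters and enhancers. Members with an activating amino end turn genes on, whereas others recruit corepressors such as CtBP or Sin3a and turn genes off. In mouse embryonic stem cells, Klf4 is a target of LIF and STAT3 signalling, Klf2 is held back by the MEK to ERK cascade, and Klf2, Klf4 and Klf5 overlap in keeping cells in the naive state. The data examined here are transposon insertions in the DNA of 10 such genes in rat cells, not transcripts or proteins. The genes were taken by name from the authors' table, and all 10 were present among its 18156 genes. The annotation column of that table gives a C2H2 zinc finger for 9 of them and is blank for Klf7.

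The cells were the rat haploid embryonic stem cell line RAH-1 with a GFP reporter behind Rex1, a marker gene of naive pluripotency. A haploid cell has no second copy of a gene, so 1 insertion can be enough to disable it, although such lines also contain diploid cells. Cells of both libraries carried the piggyBac vector PB-SA-RFP, which has a splice acceptor and a red fluorescent marker, put in together with the PBase transposase. The library before screening came from cells sorted for both colours and kept as stem cells. The library after screening came from mutant cells that were differentiated at random, sorted for remaining GFP and regrown on feeder cells in 2i/LIF medium. There was 1 library per group, so no difference has a replicate check and no p-value between conditions can be given. Sorting, regrowth and separate preparation of the libraries cannot be told apart from the effect of a mutation. The labels describe a messenger RNA preparation, which is not how insertion counts are made.

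Insertions within genes numbered 1528935 in the first library and 1287231 in the second. All shares below are of these totals, in parts per 1000000 (ppm). A fold is the ratio of shares, after over before screening unless stated, with the exact 95% interval of the conditional binomial share in parentheses. These intervals cover counting error only. Where 1 library had no insertion, the fold was taken against a floor of 3 insertions and is a lower bound, with the other count treated as exact. The lower end of the exact interval, which allows for error in both counts, is smaller. It is 25.5-fold for Klf2, 10.4-fold for Klf3 and, before over after screening, 31.5-fold for Klf4. Genes with 10 or more insertions in the libraries together were measured. A gene was called when the shares were 4-fold or more apart with 1 outside the interval, which is a rule of size and not a test. The floor was not used for calls, so a gene with no insertion in 1 library always met the 4-fold part.

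PiggyBac inserts at the 4 bases TTAA, a palindrome that reads the same on both strands. The RefSeq promoter windows of assembly GRCr8 (300 bases, from 250 before the start site to 50 after it) were searched for it, and windows were at hand for Klf3, Klf4, Klf5, Klf6, Klf7 and Klf9. Of these 6 windows, 2 held the site, against 53.9% of all 33469 windows of this length. All sites found are shown, and they lay in the windows of Klf4 and Klf6. TTAA is in capitals, and each stretch is written 5′ to 3′ on the strand of its gene.
Klf4, chr5:75078671-75078700, minus strand, TTAA starting 95 bases before the start site: acaaaggaactttTTAAaagacatctccgg
Klf4, chr5:75078579-75078608, minus strand, TTAA starting 3 bases before the start site: gtttctaaagtttTTAAtcttcgttgactt
Klf6, chr17:69458660-69458689, minus strand, TTAA starting 198 bases before the start site: aataggaaggcctTTAAtggagaggctcgg
The windows of Klf3, Klf5, Klf7 and Klf9 held no TTAA. The table gives counts per gene and no positions, so whether any counted insertion lay at these sites was not measured.

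Of the 10 genes, 9 were measured. Klf2, Klf3 and Klf7 were called higher after screening and Klf4 was called lower, while Klf5, Klf9, Klf10, Klf13 and Klf16 were not called. By the same rule 19.5% of the 11976 measured genes were higher and 21.7% were lower, and with 9 genes the members' counts of 3 and 1 lie near this background. At the 2-fold mark 4 members were higher and 1 was lower, against 31.5% and 32.4% of all measured genes. The median log2 ratio of the 9 was 0.37, with a pseudocount of 0.5 insertions. That of all measured genes was -0.01, with quartiles at -1.60 and 1.45. With counts of 0 placed at their floor the median of the 9 was the same. Of the 12234 genes measured with that setting, 18.7% were called higher and 19.8% lower. Summed over the members, insertions went from 651 to 801, a 1.46-fold higher share (1.32 to 1.62), a sum of opposite moves.

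**Figure D1:**
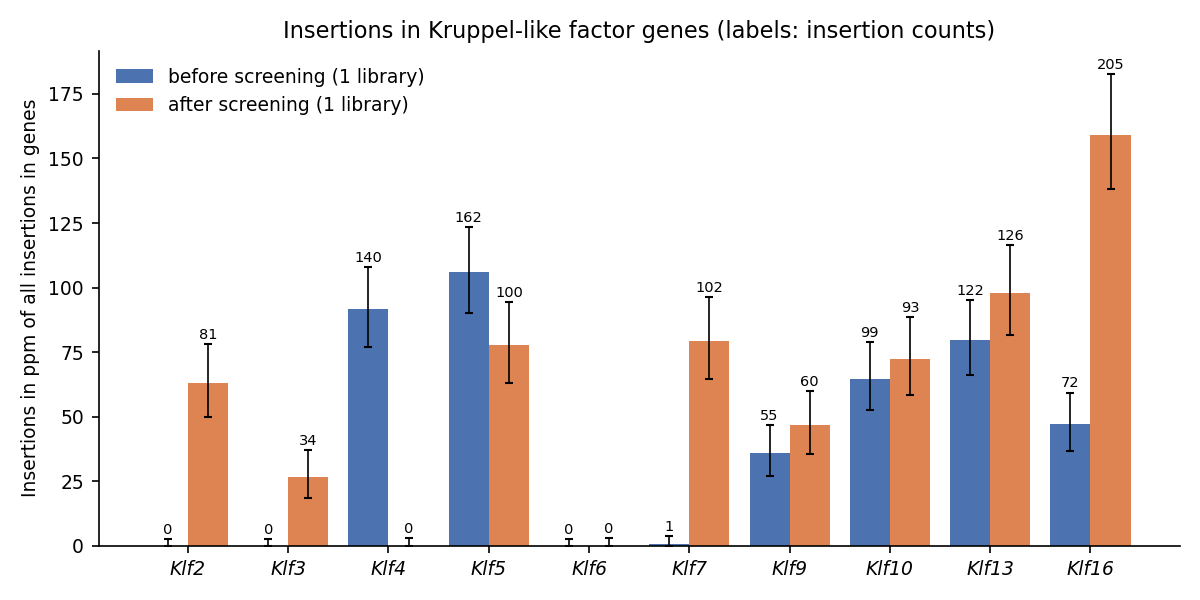
Insertions in ppm of all insertions in genes (vertical axis) in each Kruppel-like factor gene, in the library before (blue) and after screening (orange), with exact 95% binomial intervals as bars and insertion counts as labels. Klf2, Klf3 and Klf7 had 0, 0 and 1 insertions before screening, Klf4 had 0 after it, Klf6 had 0 in both, and Klf16 had the highest bar at 159 ppm.

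Among the activators tied to naive pluripotency, Klf2 and Klf4 stood at opposite ends. Klf2 (ENSRNOG00000014205) went from 0 to 81 insertions, the latter 62.9 ppm (49.97 to 78.2), which is at least 32.1-fold higher. Klf4 (ENSRNOG00000016299), one of the factors used to reprogram somatic cells, had 140 insertions before screening, or 91.6 ppm (77.0 to 108), and 0 after, which is at least 39.3-fold lower. The floor of 3 insertions used for these bounds is 1.96 ppm before screening and 2.33 after it, whereas the exact two-sided interval of a count of 0, drawn in the plot of insertions, reaches 2.41 and 2.87 ppm. In the order of log2 ratios over all measured genes, Klf2 stood at place 113 from the top and Klf4 at place 63 from the bottom.

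Complete loss or gain of this kind was not confined to this family. Among the 4501 genes whose libraries together held 50 or more but fewer than 200 insertions, 205 (4.55%) had none before screening, as Klf2 did, and 275 (6.11%) had none after, as Klf4 did. In assembly GRCr8, Klf2 overlaps Eps15l1, a gene of an endocytic adaptor, and Klf4 overlaps the predicted gene LOC120103069, so that insertions in the shared stretches can belong to either. Eps15l1 itself went from 617 to 356 insertions, a 1.46-fold lower share (1.28 to 1.67), opposite in direction to Klf2. Actl7b, an actin-like gene listed next to Klf4, went from 44 to 4 (9.26-fold lower, 3.37 to 35.5). Rad23b, listed on the other side of Klf4, had 0 insertions in both libraries. Ap1m1, listed next to Klf2, went from 208 to 190 (1.08-fold, 0.89 to 1.33) and was not called.

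Klf5, the third of the factors that overlap in naive cells, carried most insertions before screening among the members. It went from 162 to 100 insertions, from 106 (90.3 to 124) to 77.7 ppm (63.2 to 94.5). The share was 1.36-fold lower (1.06 to 1.77), an interval that excluded 1 but lay far under the 4-fold mark. In disrupting insertions alone, which are those in exons and those in introns in the orientation that traps the transcript, Klf5 went from 121 to 87 (0.84-fold, 0.63 to 1.11), so there the interval included 1.

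Klf6 and Klf7 belong to one subgroup of activators, and their insertions differed. Klf6, a factor of injury and growth control, had no insertion in either library, as was the case for 3836 of the listed genes, and its fold cannot be given. Klf7, a factor of neurons and fat cells, had 1 insertion before and 102 after screening, or 0.65 (0.017 to 3.64) and 79.2 ppm (64.6 to 96.2). Its fold of 121 had an interval from 21.3 to 4832, with only 1 insertion before screening. The long noncoding gene LOC103690543 overlaps Klf7. Both neighbours that were listed nearest to Klf7 had few insertions, with Fastkd2 at 0 in both libraries and Creb1 at 4 and 24 (7.13-fold higher, 2.45 to 28.3).

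**Figure D2:**
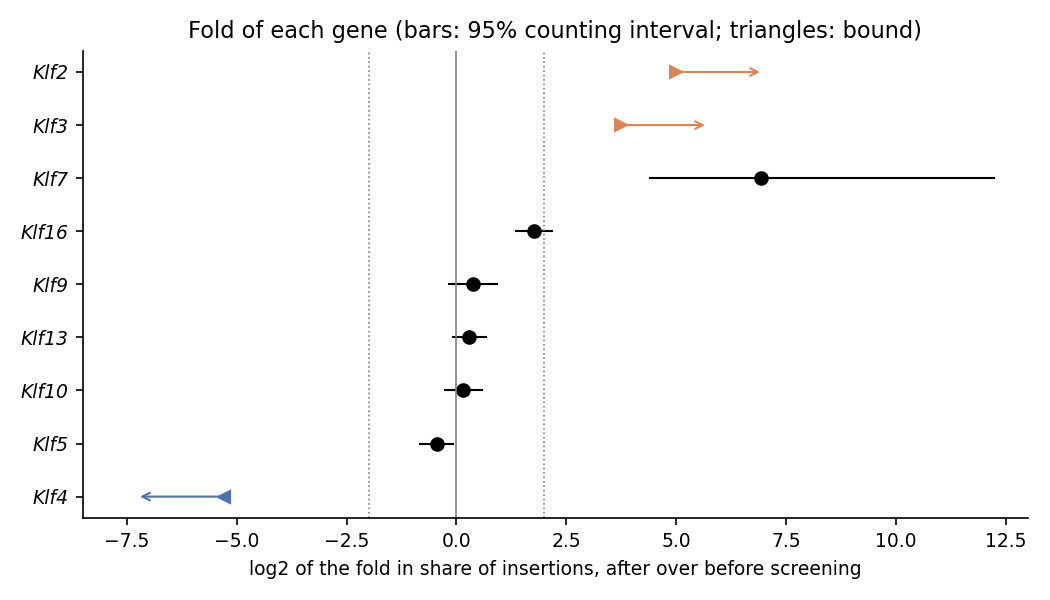
Log2 fold in the share of insertions, after over before screening (horizontal axis), for the 9 measured genes, with 95% counting intervals as lines, triangles with arrows as lower bounds where 1 library had 0 insertions, and dotted lines at 4-fold. Klf2, Klf3 and Klf7 lie right of the upper dotted line, Klf4 left of the lower one, and the interval of Klf16 (2.57 to 4.49) crosses the upper one.

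Of the 5 members known mainly as repressors, 1 was called higher and 0 lower, near the background of 19.5% and 21.7%, and 3 had intervals that included 1. Klf3, which works through CtBP, was the one called, going from 0 to 34 insertions, the latter 26.4 ppm (18.3 to 36.9), at least 13.5-fold higher. Both neighbours listed nearest to Klf3 also had insertions only after screening, Pgm2 with 0 and 16 (called higher) and Tlr10 with 0 and 5 (not measured). Klf9, a hormone-responsive repressor, went from 55 to 60 insertions (1.30-fold, 0.88 to 1.90). Klf10, first described as a gene induced by TGF-beta, went from 99 to 93 (1.12-fold, 0.83 to 1.496). For these genes, and for Klf13 with 122 and 126 insertions (1.23-fold, 0.95 to 1.59), the interval included 1. In all insertions, differences of 2-fold or more lay outside all 3 intervals, which cover counting error only. In disrupting insertions alone they did not for Klf9, which went the other way from 48 to 28 (0.68-fold, 0.41 to 1.11), or for Klf13, which went from 65 to 99 (1.77-fold, 1.28 to 2.47) with 1 outside the interval. Predicted or noncoding genes of assembly GRCr8 overlap Klf9 and Klf10, to which some of these insertions can belong. Neighbours were also called beside members that were not. Odf1, next to Klf10, went from 9 to 69 insertions (called higher), and Trpm1, next to Klf13, from 123 to 20 (called lower).

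Klf16, like Klf9, Klf10 and Klf13 a repressor that can bind Sin3a, had the most insertions of all members after screening. It went from 72 to 205 insertions, from 47.1 (36.8 to 59.3) to 159 ppm (138 to 183). The share was 3.38-fold higher (2.57 to 4.49), past 2-fold but short of the 4-fold rule. In disrupting insertions it went from 50 to 167 (3.89-fold, 2.82 to 5.45), and in reads from 110 to 287 (3.13-fold).

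**Figure D3:**
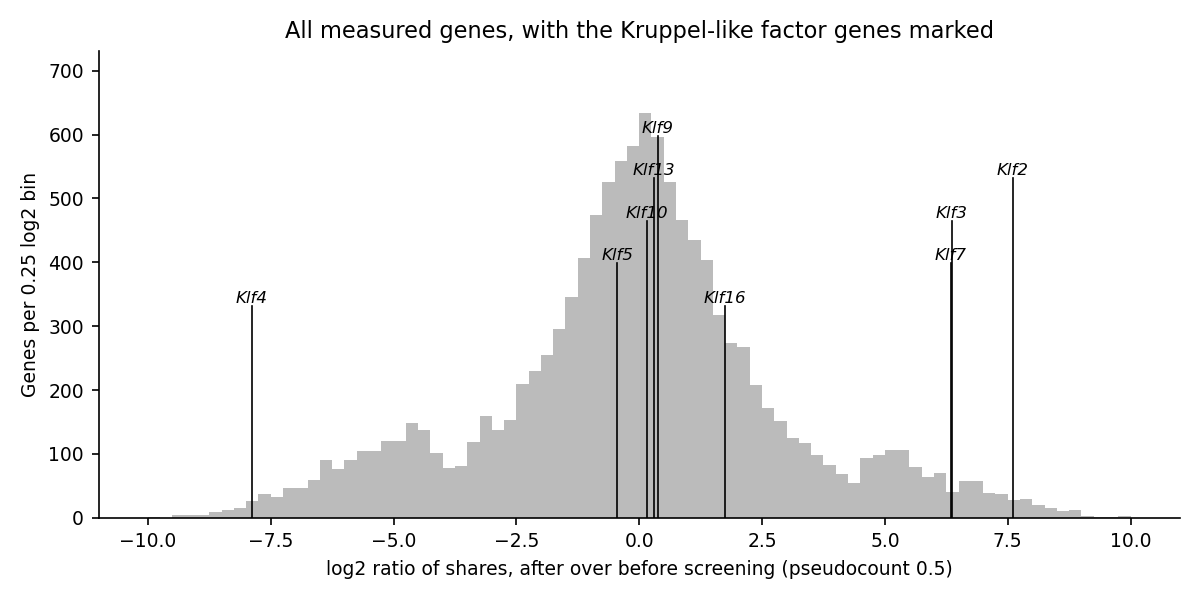
Distribution of the log2 ratio of shares, after over before screening, over the 11976 measured genes (grey, genes per bin), with the 9 measured Kruppel-like factor genes marked by lines whose height has no meaning. Klf5, Klf10, Klf13 and Klf9 lie in the central peak between -0.44 and 0.37, Klf16 stands at 1.75 on its upper flank, and Klf4, Klf3, Klf7 and Klf2 lie in the outer parts.

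In several members the kinds of insertion differed between the libraries. For all 10 genes in both libraries, subtracting the reverse insertions from the total gave the disrupting count. Insertions with no counted orientation were therefore read as exon insertions, and those with an orientation as intron insertions. Before screening 48.7% of the members' insertions were exon insertions by this reading, and after screening 43.1%, against 13.9% and 16.3% over all genes in which the same equality held. Disrupting insertions made up 74.5% and 72.4% of the members' insertions, against 56.5% and 57.6% over all genes. The most even member was Klf10, with 68 of 99 exon insertions before (68.7%, 58.6 to 77.6) and 61 of 93 after screening (65.6%, 55.02 to 75.1).

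Klf9 and Klf13, whose totals gave intervals that included 1, differed in makeup between the libraries, in opposite directions. In Klf9, exon insertions went from 37 of 55 (67.3%, 53.3 to 79.3) to 0 of 60 (0 to 5.96%). Its exon insertions were thus at least 10.4-fold lower as a share of insertions in genes, while its intron insertions went from 18 to 60 (3.96-fold higher, 2.31 to 7.13). In Klf13, exon insertions went from 7 of 122 (5.74%, 2.34 to 11.5) to 63 of 126 (50%, 41.0 to 59.0). They were 10.7-fold higher (4.90 to 27.7), while intron insertions went from 115 to 63 (1.54-fold lower, 1.12 to 2.12).

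Changes of makeup of this size were rare among genes with many insertions, but these genes were not matched to the members for exon share or number of insertions. Over all genes the exon share was 13.9% before and 16.3% after screening. A gene with an exon share under 40% before screening cannot fall by 40 points, so the rarity partly reflects such genes. Of 3968 genes with at least 50 insertions in each library and the same equality, the median change of the exon share was 3.42 percentage points, and 110 genes (2.77%) changed by at least 40 points, a size chosen after the values were seen. Klf9 changed by -67.3 points and Klf13 by 44.3 points, and 14 and 85 of these genes changed more. Klf16 changed by 21.5 points and Klf5 by 14.5 points. Among the genes with insertions in 1 library, the exon share was 65.7% in Klf4 before screening (57.2 to 73.5) and 40.7% in Klf2 after screening (29.9 to 52.2). It was 0% in Klf3 (0 to 10.3) and in Klf7 after screening (0 to 3.55), in which all 34 and 102 insertions had an orientation. How many separate sites or clones these insertions stand for was not measured.

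**Figure D4:**
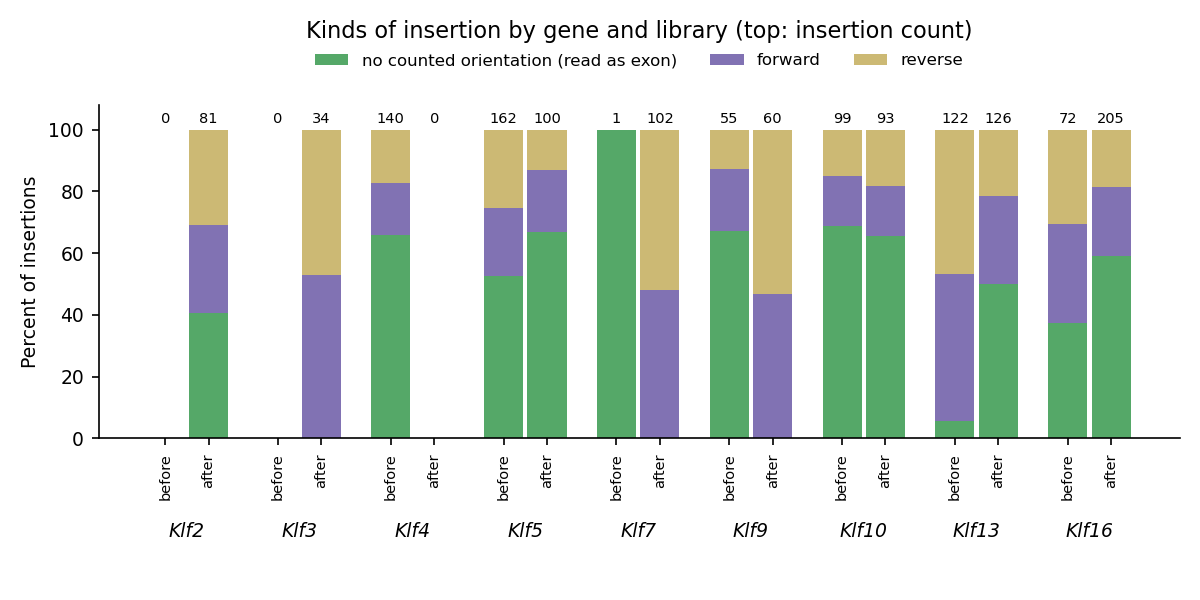
Percent of insertions (vertical axis) with no counted orientation (green, read as exon insertions), forward (purple) and reverse (yellow), in each gene before and after screening, with insertion counts on top and Klf6 left out because it had none. The green part vanishes in Klf9 and grows from 5.74% to 50% in Klf13, whereas Klf10 hardly differs.

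Forward and reverse insertions were close to equal in each gene. Over the members, 168 were forward and 166 reverse before screening (50.3% forward, 44.8 to 55.8), and 235 and 221 after (51.5%, 46.8 to 56.2). Their difference in a gene was at most 5 insertions before and 9 after screening. Whether forward and reverse insertions were counted from separate events was not measured, so the intervals may be too narrow. With all counts halved the same 4 members were called. Halving leaves a library without insertions empty, so the calls of Klf2, Klf3 and Klf4 could hardly change. Klf7 had only 1 insertion before screening. The halved counts therefore cannot decide whether double counting affected these calls. Klf4 held 24 of each before screening, and Klf2 held 23 forward and 25 reverse after. By the counting, intron insertions disrupt in the forward orientation, and after screening the interval of the forward share included 50% in every member that was hit. For example, Klf7 held 49 forward and 53 reverse (48.0% forward, 38.0 to 58.2) and Klf13 36 and 27 (57.1%, 44.0 to 69.5).

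In reads, the 4 called genes differed in the same direction as in insertions, which is no separate check. A gene without insertions can have no reads, and the 1 insertion of Klf7 before screening had 1 read. Klf2 went from 0 to 100 reads, Klf3 from 0 to 46, Klf7 from 1 to 123 and Klf4 from 197 to 0. The members had 1.45 reads per insertion before and 1.36 after screening, against 1.85 and 1.83 over all genes. Klf13 was highest after screening at 1.65 reads per insertion and Klf9 lowest at 1.18. In every member and library with insertions the ratio lay between 1 and 1.65.

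Of 16 other KLF and SP genes, which share the zinc finger domain, 13 were analysed here and 11 were measured. Of these, 4 were called higher and 0 lower, against the 19.5% and 21.7% of all measured genes given above, and the median log2 ratio was 0.65. Klf11, a close relative of Klf10, went from 0 to 73 insertions (at least 28.9-fold higher), and Klf1, the erythroid member, had 0 and 34 (at least 13.5-fold). Sp5, a Wnt target, went from 12 to 64 (6.33-fold higher, 3.39 to 12.9). Sp8, a limb and brain factor, went from 0 to 12 (at least 4.75-fold, with 3.30 as the lower end of its interval). Klf12, the relative of Klf3 that also binds CtBP, was 1.99-fold higher (1.45 to 2.73). Sp2 was 2.92-fold lower (1.98 to 4.41), the only one of the 11 past 2-fold in that direction.

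Of 8 measured partners in the naive network, 3 were called higher and 0 lower, against 19.5% and 21.7% of all measured genes (median log2 ratio 1.05). Nr0b1 (6.89-fold, 2.64 to 22.8), Gbx2 (5.34-fold, 2.66 to 11.9) and Tbx3 (4.97-fold, 3.24 to 7.87) were the 3. Esrrb, with 46 and 43 insertions, was 1.11-fold (0.72 to 1.72), and Nanog and Sox2 had none in either library. In the LIF to STAT3 arm, which acts on Klf4, 0 of 5 measured genes were called higher and 2 lower (median 0.06), against 19.5% and 21.7% of all measured genes. These were the receptor gene Il6st, with 131 and 0 insertions, and Jak2, with 111 and 8. The receptor gene Lifr went the other way, from 37 to 68 insertions (2.18-fold higher, 1.44 to 3.35), and was not called. It was the only measured gene of this list past 2-fold higher. In assembly GRCr8 Il6st overlaps the locus LOC134485838, to which some of its insertions can belong. Stat3 itself, which was on both lists, went from 173 to 280 insertions (1.92-fold higher, 1.58 to 2.34), opposite in direction to Klf4.

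On the list of cofactors and ubiquitin ligases of the family, 6 genes were measured. All 6 were cofactors, and no ubiquitin ligase of the list was measured. Of the 6, 1 was called higher and 0 lower (median 0.50), near the 19.5% higher among all measured genes. Ctbp2, a corepressor partner of Klf3, went from 112 to 399 insertions (4.23-fold higher, 3.42 to 5.27). In assembly GRCr8 Ctbp2 overlaps Zranb1 and the locus LOC134483950, to which some of these insertions can belong. The paralog Ctbp1 went the other way, from 79 to 36 (1.85-fold lower, 1.23 to 2.82). Sin3a, the corepressor scaffold of Klf9, Klf10, Klf13 and Klf16, had 8 and 7 insertions. With counts of 0 at their floor, no median of these 4 lists differed in sign from the one given.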

How the data were processed

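Splinkerette PCR products were sequenced in 1 library before and 1 after screening, and groups follow the labels. According to the methods of the study, the FASTX toolkit removed adapters and transposon tags, and HaSAPPy mapped the reads and counted insertions per gene, in versions that these sources do not give. A mouse assembly is named there but the identifiers are rat Ensembl ones, so the build is uncertain and the table was not tied to positions. For each gene and library the authors deposited raw counts of insertions, disrupting insertions, forward and reverse insertions and reads. The other 33 value columns (sums, ranks, folds, orientation ratios, a Fisher score) were not used. Insertions assigned to no gene (57.3% before, 57.9% after screening) stayed out of totals except in 1 alternative. A number in the column names of both libraries is not explained by the labels.

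Shares, folds and Clopper-Pearson intervals were computed in Python 3.11.15 with scipy 1.17.1. The interval was tested on simulated independent counts, as it assumes, so that test says nothing about counts that are not independent. PCR reads without molecular identifiers are not independent molecules, so intervals and floors cover counting error only. The members, the 5 other gene lists and the alternatives were chosen with earlier results of these data known. The list for the MEK to ERK arm is not reported here. Named are all 10 members and, of each list, up to 4 called genes. Other genes were named after their values were seen. Overlaps and neighbours come from RefSeq, assembly GRCr8, in which all 10 symbols matched. Of the other named list genes, Klf12, Sp2, Sox2 and Sin3a also overlap other loci.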

Additional observations from a re-analysis of the deposited data

How the results depend on the processing

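No paired analysis was possible because replicates were lacking, with 1 library per group, and none could be left out. Klf2, Klf3 and Klf7 were called higher and Klf4 lower by reads, by disrupting insertions, with median ratio scaling, with unassigned insertions in the totals, with counts of 0 at their floor, with halved insertions and with no minimum. Most of these reuse the same counts. Apart from the setting with the floor, a count of 0 insertions stays 0 in them. The calls of Klf2, Klf3 and Klf4 could therefore hardly change. With at least 50 insertions required, Klf3 was no longer measured and 2 members were called higher. With the 2-fold rule Klf16 was also called, making 4. Without the 5 members that overlap another gene or predicted locus, an alternative chosen after seeing the data, 4 measured members were left, of which 1 (Klf3) was called higher and 0 lower. Of 63 log2 ratios of members under the other settings, 61 stayed within the counting interval and 0 of a called gene reversed. The exceptions were Klf9, at -0.55 by disrupting insertions against 0.37 by all insertions, and Klf13, at 0.82 against 0.29. These were the genes in which the exon share changed most. The intervals of Klf2, Klf3 and Klf4 set no upper limit to the size of the change, so larger changes always counted as inside. That of Klf7 was wide, from 21.3-fold to 4832-fold. The medians of the 4 other gene lists were computed with a pseudocount of 1, with at least 50 insertions required and with counts of 0 at their floor. In the first 2 settings they moved by less than the standard deviation of the log2 ratios in the list, a wide measure. With at least 50 insertions required, the median of the cofactor list went from 0.50 to 0.92, and those of the other lists did not change.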
